A study of Mus musculus with 2 samples.

Results

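The genes described are 5 miRNA genes of blood cells, read in whole limb tissue of the mouse embryo. They are the erythroid pair Mir144 and Mir451a, the myeloid gene Mir223, and Mir155 and Mir150 of lymphoid and activated immune cells. They were chosen by name and matched through their Ensembl identifiers, and all 5 were found among 1973 counted miRNA genes. The tissue was limb of B6NCrl embryos at embryonic day 13.5, without treatment or mutation, labelled as healthy and as a mix of both sexes. The series holds 1 group of 2 biological replicates. They carry separate biosample labels and a common donor label, and nothing in the labels says how many embryos entered each. Replicate 1 had 5927321 sense counts in miRNA genes and replicate 2 had 6003632, and CPM is a gene's sense counts scaled to these totals.

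A miRNA is cut from the hairpin of a longer transcript by the nucleases Drosha and Dicer, loaded into an Argonaute protein, and pairs with target mRNAs mainly through bases 2 to 8, its seed. Blood lineages each have well-known miRNAs. Mir144 and Mir451a are transcribed together in red cell precursors under GATA1, and the Mir451a hairpin is cut by Argonaute 2 without Dicer. Mir223 is driven by PU.1 and C/EBP factors in myeloid cells and restrains granulocyte production. Mir155, from the transcript once called Bic, rises in activated B cells, T cells and macrophages, while Mir150 marks mature lymphocytes and represses Myb. In the embryonic limb such RNAs can come with circulating red cells and resident macrophages, among other cells. Which cells gave the reads here was not tested.

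The mature sequences show what distinguishes these miRNAs, and they are printed from RefSeq on GRCm38.p6, 5′ to 3′, with the seed in capitals. Each of the 5 genes matched at least 1 mature sequence, 8 in all. Mir150 matched its 3p sequence only, so its 5p arm is not printed and its seed was not compared. Reads were counted per hairpin gene, which pools both of its arms.
mmu-miR-223-3p: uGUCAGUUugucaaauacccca
mmu-miR-223-5p: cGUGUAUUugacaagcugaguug
mmu-miR-155-5p: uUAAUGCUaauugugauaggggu
mmu-miR-155-3p: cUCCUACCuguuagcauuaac
mmu-miR-144-3p: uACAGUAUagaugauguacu
mmu-miR-144-5p: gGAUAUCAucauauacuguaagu
mmu-miR-451a: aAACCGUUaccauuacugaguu
mmu-miR-150-3p: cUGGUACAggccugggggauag

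The 8 sequences had 8 different seeds, so these sequences fall into no shared seed family. The 5p arm of Mir150 is outside this comparison. No other of the 1679 mature miRNA names in the table carried any of these seeds. Bases 2 to 7, without base 8, were shared in 2 cases, printed below: miR-101a-3p with miR-144-3p, and miR-344f-5p with miR-223-3p. Mir101a lay at 113 ± 19.4 CPM (SD, n = 2), and Mir344f had 8 and 2 counts in replicates 1 and 2. The mature sequences of the members are 20 to 23 bases long, short enough for 1 read to cover each, so counts of different genes are set side by side without division by hairpin length. That each sequence was captured alike was not tested.
mmu-miR-101a-3p: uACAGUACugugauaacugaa
mmu-miR-344f-5p: aGUCAGUCuccuggcuggaguc

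The hairpins are printed with the mature parts in capitals to show how Mir451a differs in build. Hairpins matched for 4 members.
Mir223: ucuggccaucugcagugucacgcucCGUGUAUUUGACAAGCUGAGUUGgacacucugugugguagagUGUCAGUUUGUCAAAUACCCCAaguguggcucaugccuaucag
Mir155: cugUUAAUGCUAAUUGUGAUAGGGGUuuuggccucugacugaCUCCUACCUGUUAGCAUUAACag
Mir144: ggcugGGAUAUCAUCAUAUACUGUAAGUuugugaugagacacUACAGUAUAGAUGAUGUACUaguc
Mir451a: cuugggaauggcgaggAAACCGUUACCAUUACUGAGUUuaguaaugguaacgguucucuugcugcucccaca

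In a fold predicted with ViennaRNA, each of these hairpins formed 1 stem with 1 terminal loop. The Mir223, Mir155 and Mir144 hairpins have a mature miRNA on each side of the loop, which holds 5, 8 and 6 bases in that order. In Mir451a the single mature miRNA spans bases 17 to 38 and takes in the whole predicted loop, bases 35 to 38. Of its 22 bases, 17 were predicted as paired. The hairpins are 65 to 110 bases long, and their GC content runs from 37.9% in Mir144 to 50% in Mir223. The longest identical run shared with another RefSeq hairpin was 16 bases, between Mir451a and Mir451b, and it was 10 to 13 bases for the other 3.

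**Figure D1:**
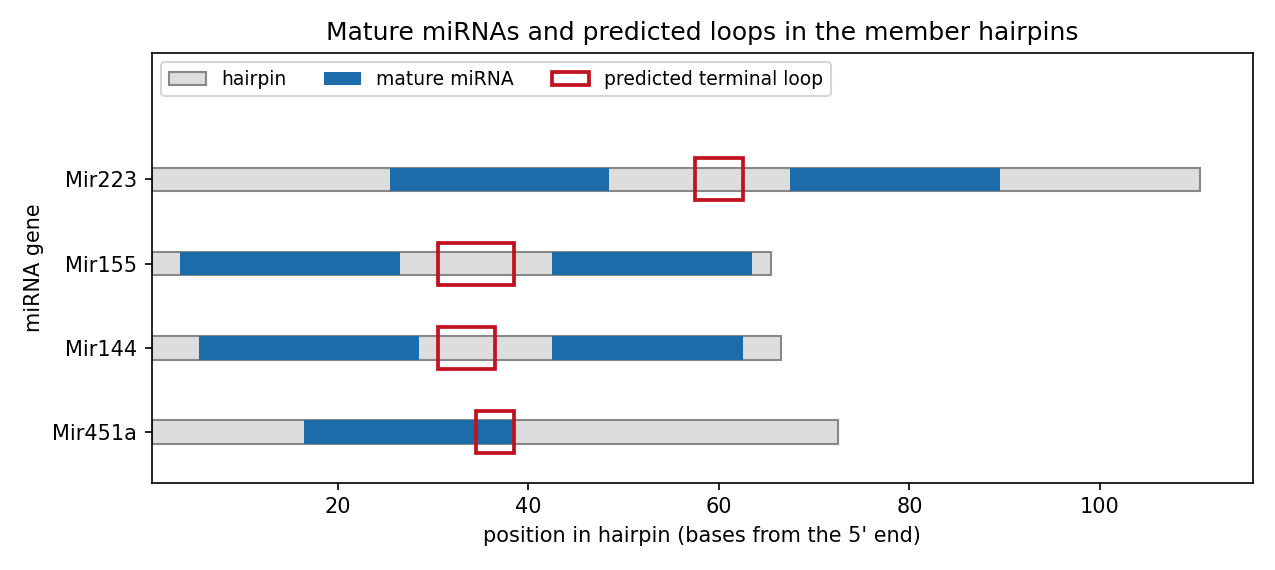
Mature miRNAs (filled) and the predicted terminal loop (open box) along the hairpins of Mir223, Mir155, Mir144 and Mir451a, on an axis of bases from the 5′ end. In Mir451a the mature sequence, bases 17 to 38, contains the loop at bases 35 to 38, while in the other 3 the loop lies between both mature sequences.

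Positions are given on mm10, the build of the files, with annotation from GENCODE M21. Mir144 (ENSMUSG00000065401) lies at chr11:78073005-78073070 on the plus strand, and Mir451a (ENSMUSG00000070065) at chr11:78073170-78073241 on the same strand, with 99 bases between them. No host transcript is annotated over either on their strand. Mir451b is annotated on the minus strand over exactly the span of Mir451a, and the nearest protein-coding gene is Eral1, 134 bases beyond Mir451a on the minus strand. Mir223 (ENSMUSG00000076066), at chrX:96242817-96242926, overlaps an exon of the noncoding gene F630028O10Rik. Mir155 (ENSMUSG00000065397), at chr16:84714140-84714204, overlaps an exon of its host Mir155hg. Mir150 (ENSMUSG00000065495), at chr7:45121757-45121821, overlaps no other annotated gene.

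All 5 genes were detected. Detection meant that both libraries held 10 or more sense counts, which 18.9% of the 1973 counted genes reached. Together they held 0.0789% of the sense counts in replicate 1 (exact 95% binomial interval 0.0767 to 0.0812) and 0.0675% in replicate 2 (0.0654 to 0.0696), a mean of 0.0732% ± 0.0081 (SD, n = 2). By mean CPM they ran from rank 137 for Mir223 to rank 305 for Mir150 among 714 genes with any count. Intervals here and below cover counting error only. In whole tissue, fewer cells of a type and less RNA per cell cannot be told apart.

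Mir223, the myeloid gene, had 1891 counts in replicate 1 and 1902 in replicate 2, or 319 and 317 CPM. Its mean was 318 ± 1.6 CPM (SD, n = 2), and the values of the libraries lay inside each other's 95% Poisson intervals of 305 to 334 and 303 to 331 CPM. Mir223 was thus alike in both libraries, with a log2 ratio of replicate 2 over replicate 1 of -0.01 (95% counting interval -0.10 to 0.08).

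Mir155, the gene of activated immune cells, had 2008 counts in replicate 1 and 1349 in replicate 2, or 339 and 225 CPM. Here the libraries stood apart, as the intervals of 324 to 354 and 213 to 237 CPM did not overlap. Its mean was 282 ± 80.7 CPM (SD, n = 2), a coefficient of variation of 28.6% against 0.494% for Mir223. Counting error alone spans 305 to 334 CPM for Mir223 in replicate 1, so its 0.494% does not measure a spread.

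The erythroid pair lay lower. Mir451a had 443 and 449 counts in replicates 1 and 2, or 74.7 and 74.8 CPM, a mean of 74.8 ± 0.035 CPM (SD, n = 2). The libraries could not be told apart, as each value lay well inside the interval of the other, 67.9 to 82.0 CPM in replicate 1. The SD of Mir451a is far narrower than that interval and does not measure a spread. Mir144 had 289 and 319 counts, or 48.8 and 53.1 CPM, a mean of 50.9 ± 3.1 CPM (SD, n = 2), with overlapping intervals of 43.3 to 54.7 and 47.5 to 59.3 CPM.

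Mir150, the gene of mature lymphocytes, was the scarcest. It had 46 counts in replicate 1 and 34 in replicate 2, or 7.76 and 5.66 CPM, a mean of 6.71 ± 1.48 CPM (SD, n = 2). The intervals of 5.68 to 10.4 and 3.92 to 7.91 CPM overlapped widely, so at this depth no difference between the libraries was detectable.

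**Figure D2:**
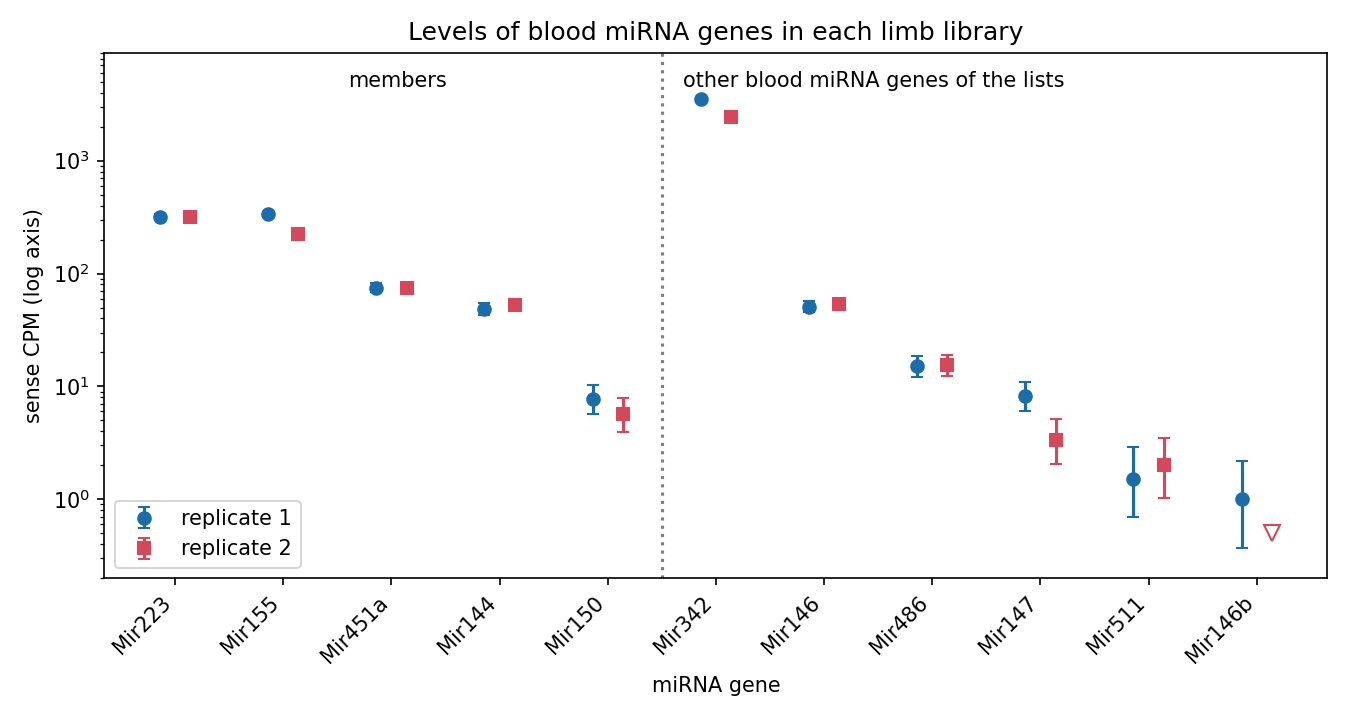
Sense CPM (log axis) of each member and of the other blood miRNA genes with any count, per library, with 95% Poisson intervals from counting. The open triangle is the limit of 0.4997 CPM for Mir146b in replicate 2, where it had 0 counts. Mir155, Mir342 and Mir147 are lower in replicate 2, while Mir223, Mir451a and Mir144 keep overlapping intervals.

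The order of the first 2 genes was not resolved, while the rest kept their order in both libraries. Counts of Mir155 over Mir223 had a log2 ratio of 0.09 in replicate 1 (exact 95% interval -0.005 to 0.18) and -0.50 in replicate 2 (-0.60 to -0.39). In replicate 1 they were therefore not distinguishable, and in replicate 2 Mir223 was 1.41-fold higher. Counts of Mir223 over Mir451a were alike, 4.27-fold in replicate 1 (interval 3.85 to 4.74) and 4.24-fold in replicate 2 (3.82 to 4.71). Their log2 ratio was 2.09 ± 0.008 (SD, n = 2), an SD far narrower than the counting intervals. Mir451a exceeded Mir144, its neighbour in the cluster, by 1.53-fold in replicate 1 (interval 1.32 to 1.78) and 1.41-fold in replicate 2 (1.22 to 1.63). The log2 ratio of this erythroid pair was 0.55 ± 0.09 (SD, n = 2). Mir144 exceeded Mir150 by 6.28-fold (4.59 to 8.77) and 9.38-fold (6.58 to 13.8). Of the sense counts of the 5 genes, Mir155 held 42.9% in replicate 1 and 33.3% in replicate 2, while Mir223 held 40.4% and 46.9%. The erythroid pair followed, with Mir451a at 9.47% and 11.1% and Mir144 at 6.18% and 7.87%, and Mir150 held 0.984% and 0.839%.

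**Figure D3:**
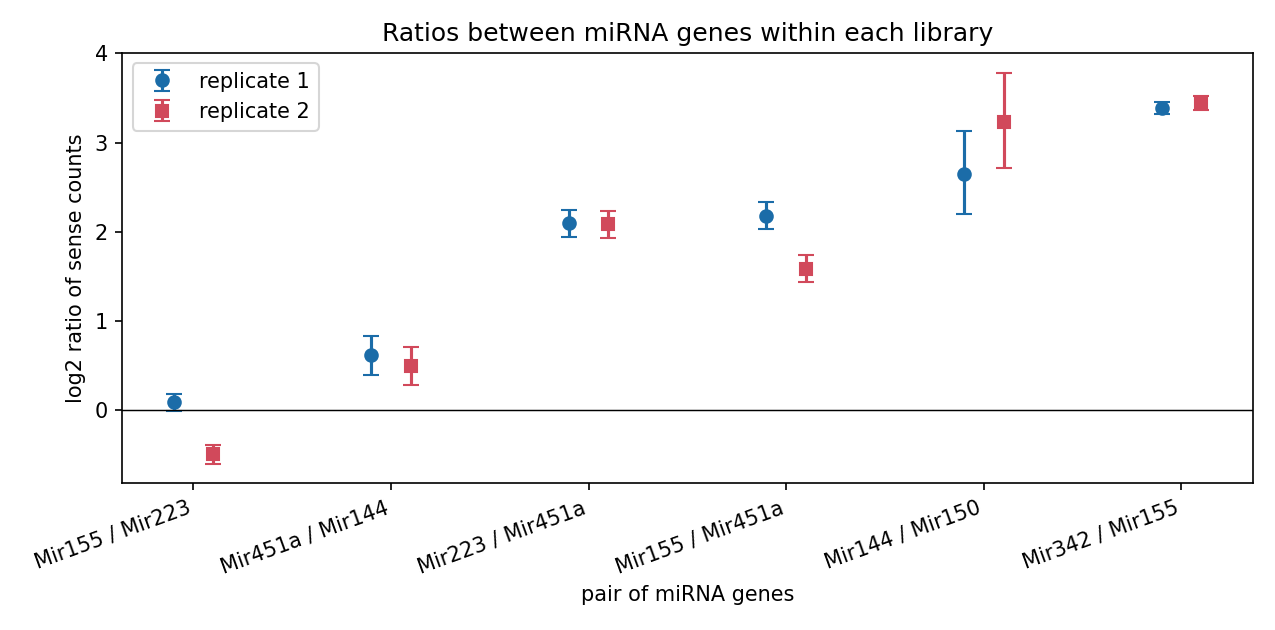
Log2 ratio of sense counts between named miRNA genes within each library, with exact 95% intervals from counting. The ratio of Mir155 over Mir223 is 0.09 in replicate 1 and -0.50 in replicate 2, while Mir223 over Mir451a and Mir451a over Mir144 overlap between the libraries.

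The libraries were compared gene by gene with a two-sided exact binomial test of the sense counts against the library totals, over 444 genes with at least 10 counts in sum, Benjamini-Hochberg adjusted over all of them. A gene was called at an adjusted p under 0.05 and an absolute log2 ratio of at least 1. The test treats reads as independent and covers counting error only, so its p-values compare these libraries and do not measure a spread between samples. By that rule 3.38% of the tested genes were called, and 0 of the 5 members. By the adjusted p alone 40.3% of the tested genes passed, and 1 of the 5 members, Mir155. It was lower in replicate 2, at a log2 ratio of -0.59 (counting interval -0.69 to -0.49; adjusted p = 5.13e-31, exact binomial test). The log2 ratios of the others were -0.01 for Mir223, 0.0009 for Mir451a, 0.12 for Mir144 and -0.45 for Mir150, with adjusted p of 0.909, 1, 0.46 and 0.317 by the same exact test. A smaller ratio passes at higher counts, so the share of genes passing by the adjusted p depends on their level. At an unadjusted p under 0.05, 1 member passed by the exact binomial test and the same number by an exact negative binomial test, which also allows for the spread that genes had in common between the libraries. After adjustment Mir155 did not pass the latter test, at 0.297 (edgeR).

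For its level, Mir155 was among the genes that differed most between the libraries. Of the 53 other tested genes within 2-fold of its mean CPM, 1 had a larger absolute log2 ratio, and their median was 0.14. That gene, Mir20b, was singled out after its value was seen. It had 1175 and 731 counts, a log2 ratio of -0.70. Over all 190 genes with a mean of at least 100 CPM the median was 0.13, and 3 genes exceeded Mir155, also named after their values were seen. They were Mir181b-2 at -0.73, Mir20b, and Mir199b at -0.59, and like Mir155 they were higher in replicate 1. By the same measure Mir223 lay at the quiet end: 44 of the 47 genes within 2-fold of its mean had a larger ratio. For Mir451a it was 67 of 68, for Mir144 38 of 59 and for Mir150 23 of 61. The counting intervals of Mir223, -0.10 to 0.08, and Mir451a, -0.19 to 0.19, are far wider than their ratios. Their exact places in this order are therefore not resolved by these counts.

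**Figure D4:**
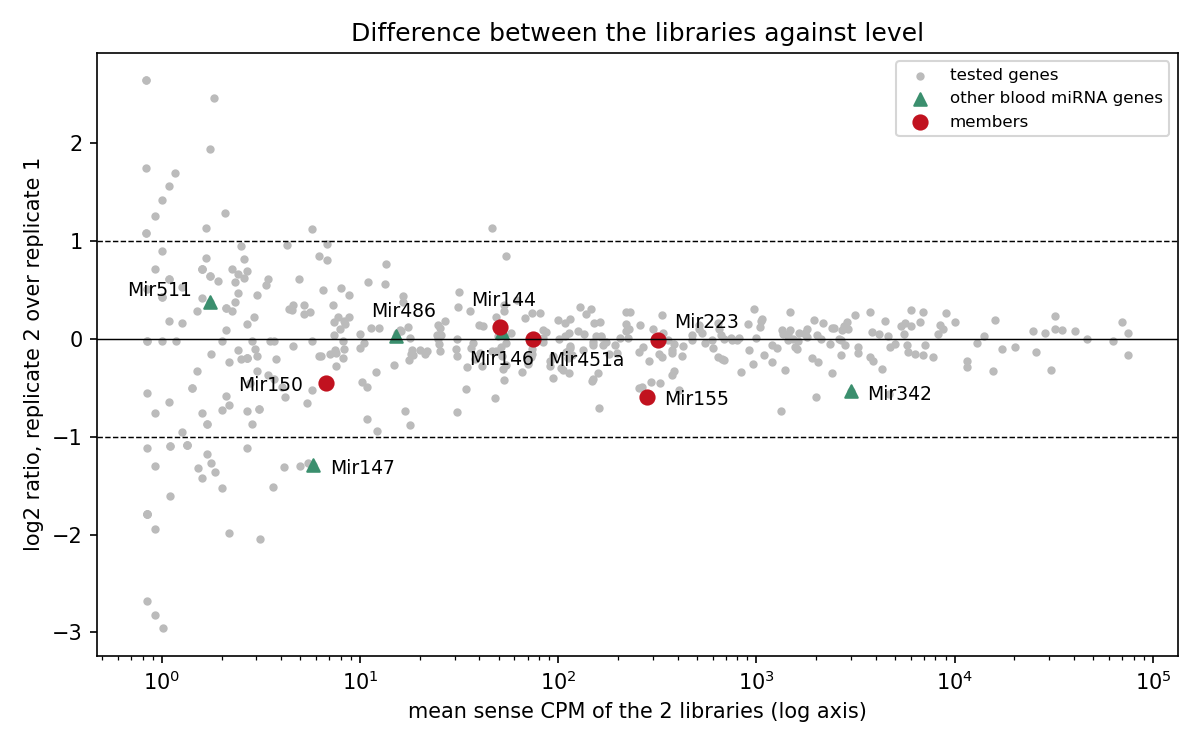
Log2 ratio of replicate 2 over replicate 1 against mean CPM (log axis) for the 444 tested genes, with the members as red circles and the other blood miRNA genes as green triangles. Dashed lines mark a log2 ratio of 1 in either direction. Mir155 at -0.59 and Mir342 at -0.54 lie at the lower edge of genes of their level, and Mir223, Mir451a and Mir144 lie near 0.

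Other blood miRNA genes were read from lists of the same 3 lineages, with the members counted among them. In the lymphoid and activation list 3 of 4 genes were tested: Mir155 and Mir150, given above, and Mir342. Their median log2 ratio was -0.54, against -0.02 over all tested genes. With 3 genes this median is the value of Mir342 itself and describes no wider set. By the adjusted p alone 2 of the 3 passed, Mir155 and Mir342, both higher in replicate 1. In that direction 22.1% of all tested genes passed, a share that pools genes of all levels. Mir150 did not pass. Mir342, in an intron of Evl, had 20964 and 14654 counts, or 3537 and 2441 CPM. Whether its reads came from lymphoid cells was not tested. Its log2 ratio was -0.54, adjusted p = 1.81e-262 by the exact binomial test and 0.373 by the exact negative binomial test. The counts of Mir342 over those of Mir155 were alike in the libraries, 10.4-fold in replicate 1 (interval 9.97 to 10.9) and 10.9-fold in replicate 2 (10.3 to 11.5). Mir146b, which dampens innate immune signalling, had 6 and 0 counts. In replicate 2 a count of 0 allows up to 0.4997 CPM, and the gene was too scarce to be tested.

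The erythroid list held Mir144, Mir451a and Mir486, a gene in an intron of the red cell ankyrin gene Ank1. By the adjusted p alone 0 of the 3 passed, against 40.3% of all tested genes, a share that pools genes of all levels. Their median log2 ratio was 0.03. By these counts Mir486 lay below the pair, with 89 and 92 counts, or 15.0 and 15.3 CPM. The listed Mir486b, annotated as Mir3107 opposite to it, has no count row of its own here. Multimapping reads are counted to no gene, so reads alike between Mir486 and Mir486b would be missing from these counts. Whether the level of Mir486 is understated for that reason was not tested.

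In the myeloid list 4 of 5 counted genes were tested, with a median log2 ratio of 0.03. Besides Mir223 these were Mir146, Mir147 and Mir511. Mir146, the gene of miR-146a, a brake on NF-kB signalling, had 302 and 322 counts, or 51.0 and 53.6 CPM. Mir511, in an intron of the macrophage mannose receptor gene Mrc1, had 9 and 12 counts. Mir147, a gene induced in activated macrophages, had 49 and 20 counts, or 8.27 and 3.33 CPM. Its log2 ratio was -1.29 (adjusted p = 0.00144, exact binomial test). Among the 10 tested genes of the 3 blood lists it was the 1 called, against 3.38% of all tested genes. The exact negative binomial test gave it an adjusted p of 0.237.

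Mir142, a gene expressed across blood lineages, is not counted under its own name here, but reads on its strand were. Mir142b is annotated on the other strand over the Mir142 hairpin (chr11:87756864-87756927). It had 0 sense counts in both libraries, with 2337 antisense counts in replicate 1 and 2543 in replicate 2. Scaled as the members are, these reads amounted to 394 and 424 CPM, 409 ± 20.7 (SD, n = 2), above the mean of every member. The arms of Mir142 are printed here because its reads, unlike those of the members, had to be read from the antisense column.
mmu-miR-142a-3p: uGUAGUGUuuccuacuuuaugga
mmu-miR-142a-5p: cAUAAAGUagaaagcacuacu

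The members themselves had almost no reads on the other strand. Antisense counts were 0 in both libraries over Mir223, Mir155, Mir451a and Mir144. Over Mir150 there was 1 in replicate 1. For Mir451a the 0 bears on Mir451b, which occupies the same span: 0 of 892 reads allows an antisense share of up to 0.336%.

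The genes nearest to each member in level were read from their 2 CPM values. Likeness was the distance between log2(CPM + 1) values over the 2 libraries, which describes level and carries no test. Nearest to Mir223 were Mir669l (distance 0.099) and Mir204 (0.14). Nearest to Mir155 were Mir16-2 (0.14) and Mir181a-2 (0.14), both also lower in replicate 2, at 309 and 219 CPM and at 338 and 249 CPM. Mir451a lay beside the muscle gene Mir133b (0.013) and Mir505 (0.076). Nearest to Mir144 were Mir146 (0.064) and Mirlet7c-2 (0.087). Mir150 had Mir7688 (0.19) and Mir7083 (0.21) closest.

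**Figure D5:**
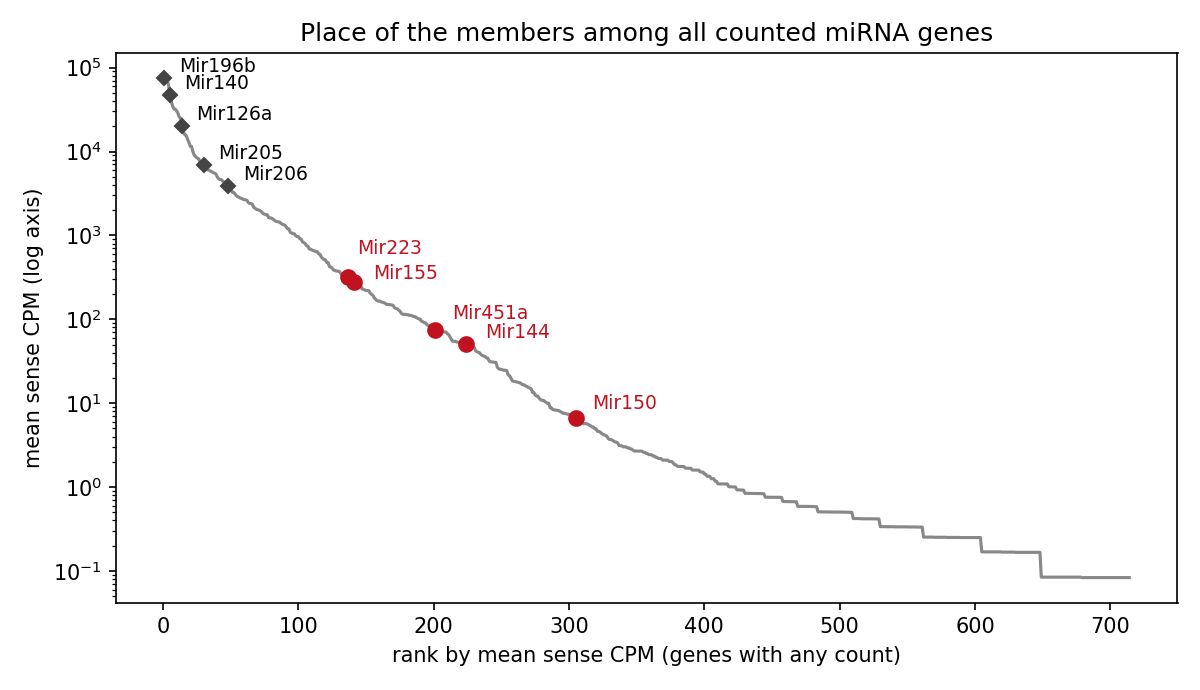
Mean sense CPM (log axis) of the 714 genes with any count, ordered by rank, with the members in red and marker genes of other limb tissues as dark diamonds. The members lie between ranks 137 and 305, and the 5 marker genes, 1 for each tissue, at ranks 1 to 48. Other markers, not drawn, lie among the members, such as Mir196a-1 at rank 255.

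Leading marker genes of other limb tissues lay above the members, but not all of their markers did. The Hox cluster gene Mir196b had the highest mean, 75238 CPM, and the cartilage gene Mir140 (46627 CPM), the vessel gene Mir126a (20233 CPM), the skin gene Mir205 (6918 CPM) and the muscle gene Mir206 (3841 CPM) all lay above every member. Other markers of these tissues were below Mir223: Mir141 lay at 230 CPM, Mir200a at 194 CPM, Mir133b at 75.3 CPM and Mir196a-1 at 21.7 CPM. Mir196a-2, of like name to Mir196a-1, lay at 964 CPM, and multimapping reads are counted to neither. Mir342 of the lymphoid list, at a mean of 2989 CPM, lay below Mir206 but far above Mir150 of the same list, at 6.71 CPM. Markers of limb tissues were thus present. Counts of Mir126a, a gene of the endothelium that lines vessels, were 65.3-fold those of Mir223 in replicate 1 and 62.0-fold in replicate 2. Markers of some of these tissues also differed between the libraries. In the surface epithelium list 7 of 7 genes were detected and 6 of 7 were higher in replicate 2 by the adjusted p (18.2% of all tested genes), at a median log2 ratio of 0.27 and summed levels of 20227 and 23584 CPM. In the limb Hox list 5 of 6 passed, 4 of them higher in replicate 1 (22.1% of all tested genes), at a median log2 ratio of -0.13 and summed levels of 102314 and 93131 CPM. The shares of all tested genes pool genes of all levels, while a small ratio passes at high counts, such as 0.03 for Mir10b. Mir126a differed by -0.09, and the cartilage list had a median of 0.02. In the muscle list Mir133a-2 had 0 counts in both libraries, Mir133a-1 had 0 and 1, and Mir1a-1 had 1 and 1. Multimapping reads are counted to no gene, so genes with near-identical copies can read low here. How far this lowered these counts was not tested. The part of differences in tissue markers between the libraries in the lower level of Mir155 in replicate 2 was not tested.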

How the data were processed

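MicroRNA libraries of 2 limb samples were analysed. The authors deposited, per library, whole-number read counts per miRNA gene in 3 columns. No header names them: their layout matches counts on either strand, sense and antisense, and in all 1973 genes the first is the sum of the others. Sense counts were used. Per the deposited text the build is mm10 and the annotation GENCODE M4. Which aligner and counter made them is not given in the sources used here. Reads on lines that name no gene, 52.2% and 52.6% of 12407140 and 12657170, stayed out of library sizes. They include the 30.8% and 29.5% listed as multimapping.

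Symbols came from GENCODE M21 by identifier without version (1894 of 1973 matched). Older list symbols were resolved by RefSeq synonyms. Sequences came from RefSeq (GRCm38.p6), with folds by ViennaRNA 2.7.2. Tests used scipy 1.17.1 and edgeR 4.0.16 (the dispersion of the negative binomial test was estimated from these 2 libraries as replicates). Log2 ratios between libraries had 0.5 counts added. Limits for 0 counts are 3 counts. No molecular identifiers are recorded. The exact binomial test and the counting intervals were checked on simulated Poisson counts. Such counts follow the model they assume, so the check does not cover any wider spread between real libraries. The negative binomial test was not checked in this way. Members and lists were chosen with earlier results of these data known. Genes were named as members, list genes, marker genes of other tissues, the 2 nearest in level, and genes on the other strand or of like seed. Alternatives were other library sizes (TMM, DESeq2 1.42.0), count minimums, pseudocounts, denominators, both strands and each library alone.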

Additional observations from a re-analysis of the deposited data

Results flagged for a closer look

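Signal in the antisense column, which the comparisons between libraries do not use, lay above the limit of 3 counts over 2 genes of the blood lists. Over Mir142b there were 2337 antisense counts in replicate 1 and 2543 in replicate 2, against 0 sense counts in each, on the strand of the blood gene Mir142. Over Mir486 there were 8 and 12 antisense counts, against 89 and 92 sense counts.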

How the results depend on the processing

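Of 81 recomputed values 64 kept their direction, their side of the threshold and their size within the spread of the replicates. With 2 libraries, a mean, share or ratio from either library alone lies within that spread by arithmetic, unless its sign turns. Such values are among the 64 and say nothing about stability. All 5 members stayed detected in each library alone, but the detection rule already asks for its minimum in both libraries. That outcome was therefore fixed by the rule and says nothing about stability either. The count of genes called between the libraries, 15 as reported, was 179 without the minimum ratio and 1 by the exact negative binomial test, which allows a wider spread. Without the minimum ratio, a choice added after the data were seen, Mir155 passed at -0.59. Near 0, Mir223 changed sign to 0.0055 with TMM sizes and 0.0084 with DESeq2 sizes, and Mir451a to -0.00044 with both strands. Mean CPM over all reads was 151 for Mir223, 134 for Mir155, 35.6 for Mir451a, 24.2 for Mir144 and 3.20 for Mir150, as 47.8% and 47.4% of the reads lie in genes. Over uniquely mapped reads it was 291 for Mir223, 68.5 for Mir451a and 46.7 for Mir144, and with both strands 308 for Mir223 and 72.4 for Mir451a. The log2 ratio of Mir155 over Mir223 was -0.20, -0.50 without replicate 1 and 0.087 without replicate 2. Ratios between libraries cannot be had from 1 library. No paired analysis was possible because there is 1 group. Depth limits Mir150, at 34 and 46 counts.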
